A study of Homo sapiens with 12 samples.

Results

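MAPKAPK2, which encodes the stress-activated kinase MK2, lies on chromosome 1q32 beside kinase and translation genes on its centromere side and the interleukin-10 cytokine cluster on its telomere side. The genes described here are 10 neighbours chosen by symbol, with earlier results of these data known. They are IKBKE, RASSF5, EIF2D and DYRK3 on the centromere (proximal) side, and IL10, IL19, IL20, IL24, FCMR and YOD1 on the telomere (distal) side. Some tested genes that lie nearer to MAPKAPK2 than YOD1, such as PIGR and PFKFB2, are not among these 10. All 10 had a row among the 56609 symbols of the count table, and 9 of them were among the 21698 genes with enough reads to be tested; IL20 was not. RNA was sequenced from 12 libraries of the established human melanoma line A375, in 4 groups of 3: wild-type cells in DMSO, wild-type cells in JQ1, MAPKAPK2-knockout cells in DMSO and MAPKAPK2-knockout cells in JQ1. The DMSO samples are called untreated in their titles and DMSO in the treatment field. The knockout was made with CRISPR/Cas9, and JQ1, an inhibitor of BET bromodomain proteins, was given at 500 nM for 48 h. The labels do not say whether the knockout line is a single clone or a pool, where in MAPKAPK2 the cut was made, or whether wild-type cells received a control guide, so effects of the edit and other differences between the lines cannot be told apart. They also do not say that replicates were separate cultures, so p-values measure only the spread between these libraries.

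Interleukin-10 and the related cytokines IL-19, IL-20 and IL-24 are secreted helical proteins encoded side by side. IL-10 restrains inflammatory signalling in immune cells, while IL-19, IL-20 and IL-24 act mainly on epithelial cells through receptors that pair IL20RB with IL20RA or IL22RA1 and that signal through JAK kinases and STAT3. IL24 was first isolated, as MDA-7, from melanoma cells induced to differentiate.

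Libraries held 25316900 to 34594300 estimated counts. In the label check the melanoma lineage factor SOX10 averaged 437 ± 7.38 CPM (counts scaled to a common library size) in wild-type DMSO and 438 ± 42.6 CPM in knockout DMSO. MITF averaged 43.1 ± 1.01 and 28.8 ± 2.85 CPM in these groups (SD, n = 3 each), and was called lower in the knockout (log2 fold change -0.58, adjusted p 3.23e-04, edgeR). S100B went the other way, with 29.3 ± 1.27 and 40.0 ± 2.48 CPM, and was called higher (0.45, adjusted p 4.03e-04, edgeR). The pigment genes MLANA, PMEL, TYR and DCT each had a mean under 1 CPM in both groups. The 5 leukocyte markers summed to between 1.07 and 3.26 CPM in every library, most of it LYZ, with PTPRC at 0.188 CPM in wild-type DMSO. The 4 keratinocyte markers summed to at most 7.12 CPM, with KRT1 at 0 in all libraries. The 2 fibroblast markers summed to 10.7 to 12.1 CPM in wild-type DMSO, 8.27 to 8.81 in knockout DMSO, 3.88 to 4.84 in wild-type JQ1 and 2.56 to 2.92 in knockout JQ1. Most of this was PDGFRB, which averaged 10.4, 7.84, 3.92 and 2.22 CPM in these groups in turn. COL1A1 averaged 1.06, 0.68, 0.365 and 0.521 CPM, so it was not lower in knockout JQ1 than in wild-type JQ1. The keratinocyte marker KRT14 averaged 0.745 CPM in wild-type JQ1 and 0.207 in knockout JQ1 (log2 fold change -1.76, adjusted p 0.0444, edgeR). LYZ averaged 2.44 CPM in wild-type DMSO and 0.856 in wild-type JQ1. The part of these markers in the results was not tested. MAPKAPK2 itself was at 87.9 to 92.1 CPM in wild-type DMSO, 112 to 120 in wild-type JQ1, 11.1 to 13.2 in knockout DMSO and 12.6 to 15.7 in knockout JQ1, so every knockout library lay below every wild-type library.

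The region was placed with GENCODE release 29 on GRCh38. MAPKAPK2 occupies chr1:206684944-206734283 on the plus strand. On the proximal side IKBKE is at chr1:206470476-206496889 (plus strand), RASSF5 at chr1:206507530-206589448 (plus), EIF2D at chr1:206571292-206612463 (minus) and DYRK3 at chr1:206635536-206684419 (plus). DYRK3 ends 524 bases before MAPKAPK2 begins, and RASSF5 and EIF2D overlap tail to tail over 18157 bases. On the distal side IL10 is at chr1:206767602-206772494 (minus), IL19 at chr1:206798870-206842981 (plus), IL20 at chr1:206865354-206869223 (plus) and IL24 at chr1:206897443-206904139 (plus), 33.3, 64.6, 131.1 and 163.2 kb from MAPKAPK2. FCMR, at chr1:206904386-206923247 on the minus strand, ends 246 bases from the end of IL24. YOD1, at chr1:207043849-207052980 (minus), lies 309.6 kb away and wholly inside PFKFB2 on the opposite strand. The libraries were directional, but whether counting used the strand is not given in the sources used here, so reads of RASSF5 and EIF2D, of YOD1 and PFKFB2 and of the adjoining ends of IL24 and FCMR may be shared.

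The RNA of these genes starts from promoters that can be read in RefSeq (GRCh38.p14), which listed 16 start windows for the 10 neighbours. The 250 bases before the start are shown for IL24 and YOD1, the distal genes called lower in the knockout in both treatments, for IL10, the distal gene nearest to MAPKAPK2, and for DYRK3, the nearest proximal gene. The RefSeq start of YOD1 lies inside the GENCODE span given above. Its window is therefore inside that span and not upstream of it. Capitals mark matches on either strand to 4 patterns, none of which contains another. These are the AP-1 element, whose letters are TGANTCA, and the cyclic AMP response element, whose letters are TGACGTCA. The others are the TATA box, searched as TATAAA, and the CCAAT box.
IL24, chr1:206897193-206897442, plus strand: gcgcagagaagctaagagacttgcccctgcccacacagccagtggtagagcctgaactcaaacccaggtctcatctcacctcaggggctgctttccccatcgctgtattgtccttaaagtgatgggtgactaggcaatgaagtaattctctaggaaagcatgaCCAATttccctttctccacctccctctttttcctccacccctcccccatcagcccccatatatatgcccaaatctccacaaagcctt
YOD1, chr1:207051209-207051458, minus strand: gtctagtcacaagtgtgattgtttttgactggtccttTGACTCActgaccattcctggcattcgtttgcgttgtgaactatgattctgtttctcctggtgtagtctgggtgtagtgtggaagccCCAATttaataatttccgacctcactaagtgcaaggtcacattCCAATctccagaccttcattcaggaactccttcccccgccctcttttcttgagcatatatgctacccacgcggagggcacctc
IL10, chr1:206772495-206772744, minus strand: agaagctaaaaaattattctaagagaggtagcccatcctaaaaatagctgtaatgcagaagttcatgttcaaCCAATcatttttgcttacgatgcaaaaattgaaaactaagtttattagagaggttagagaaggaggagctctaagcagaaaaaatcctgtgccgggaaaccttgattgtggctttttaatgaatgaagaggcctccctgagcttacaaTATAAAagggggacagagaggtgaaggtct
DYRK3, chr1:206635286-206635535, plus strand: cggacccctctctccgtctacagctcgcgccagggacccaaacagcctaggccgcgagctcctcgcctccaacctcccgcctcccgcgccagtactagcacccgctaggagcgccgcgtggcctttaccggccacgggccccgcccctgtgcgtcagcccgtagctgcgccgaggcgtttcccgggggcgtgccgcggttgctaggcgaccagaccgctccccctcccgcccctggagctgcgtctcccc
The IL24 window held a CCAAT match that begins 87 bases before the start and none of the other patterns. YOD1 held an AP-1 match that begins 213 bases before the start and CCAAT matches at 126 and 83 bases. The IL10 window shown held a TATAAA match at 30 bases and a CCAAT match at 178 bases, and the DYRK3 window held none of the 4. IL10 had further start windows that are not shown. The window at chr1:206770604-206770853 held an AP-1 match and none of the other patterns, and that at chr1:206771190-206771439 held a CCAAT match alone. Among the 35116 windows of that length in the table, 6.57% held the AP-1 element, 1.65% the cyclic AMP response element and 10.7% the TATA box, and 11240 windows held a CCAAT box. These matches are a description of letters and say nothing of binding.

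Without drug, 3 of the 6 distal genes, IL24, FCMR and YOD1, were called lower in the knockout. Of the other distal genes IL20 was not tested, and IL10 and IL19 were also below wild type but did not pass. Of the 4 proximal genes 1, EIF2D, was called higher. Among the 9 tested neighbours IL24, FCMR and YOD1 were lower and EIF2D was higher in the quasi-likelihood test of edgeR, Benjamini-Hochberg adjusted over all genes. That is 3 lower and 1 higher, where 4.44% of all tested genes were called lower, 3.47% higher and 7.92% in either direction. Because the neighbours were chosen with earlier results of these data known, such counts are descriptions. The median log2 fold change of the 9 was -0.54, against -0.0049 over all tested genes, and 8 of the 9 were below 0. Under JQ1 the knockout was lower in IL24, YOD1 and RASSF5, so 3 of 9 were lower and none was higher, where 5.56% of tested genes were called lower, 3.01% higher and 8.57% in either direction. The median there was -0.68, and again 8 of 9 were below 0. IL19 reached the read minimum in wild-type libraries alone, so its presence among the tested genes already depends on its higher wild-type level. The medians and the counts below 0 given here include IL19.

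**Figure D1:**
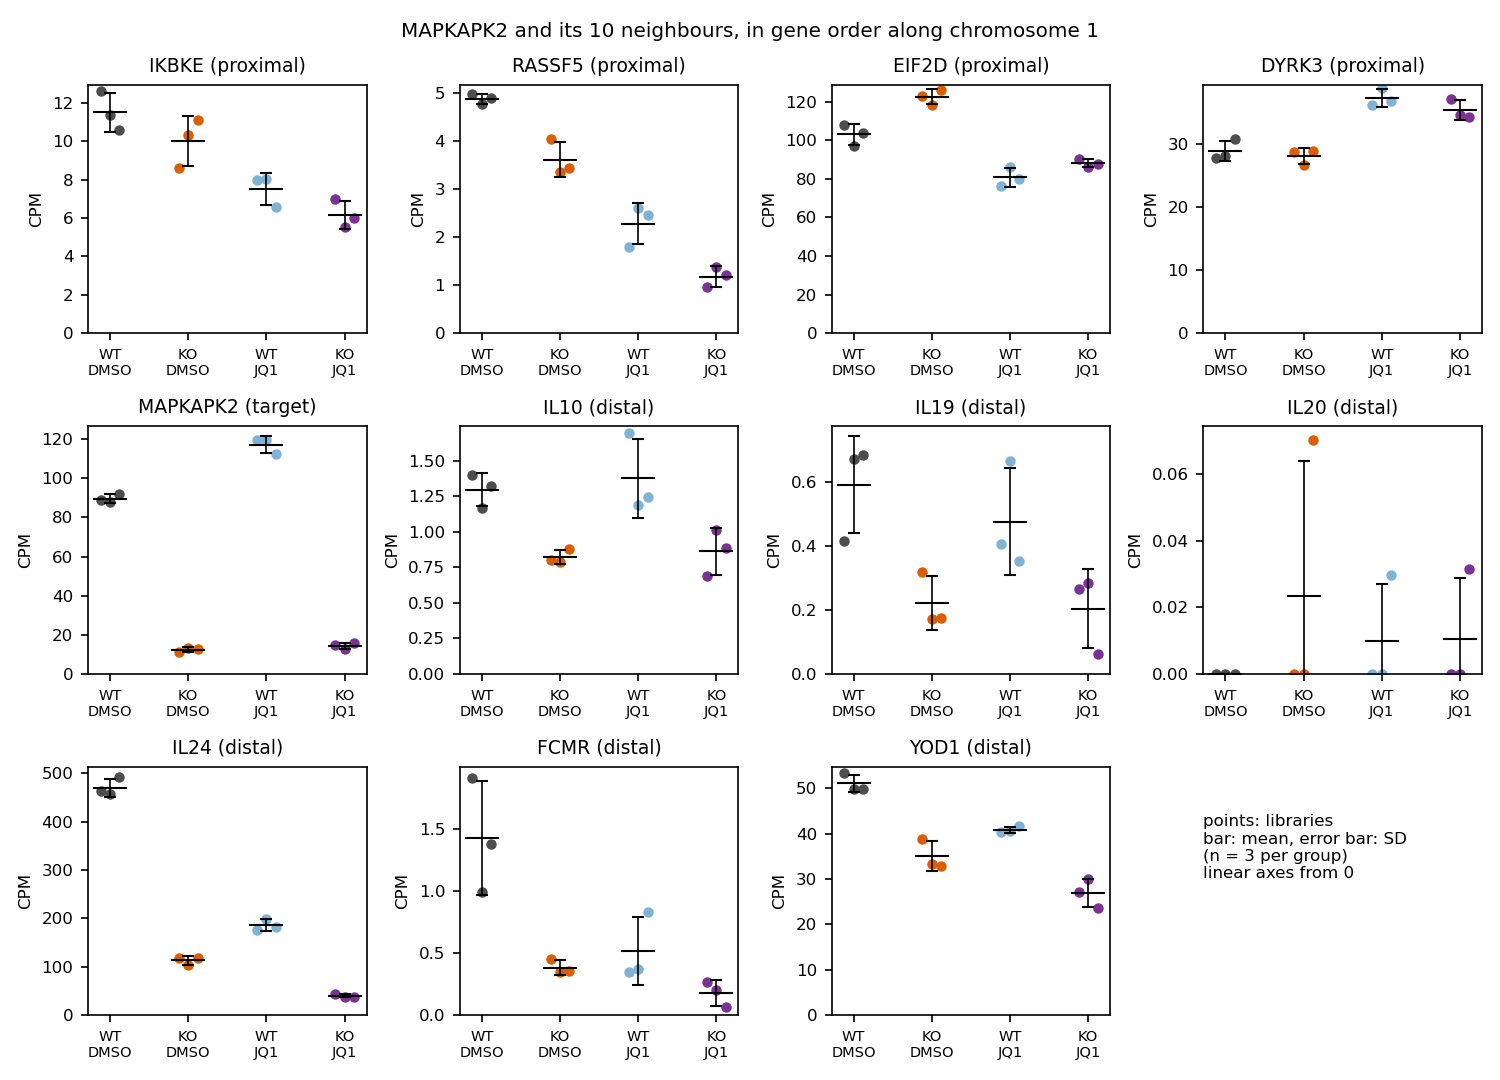
CPM (y axis, linear from 0) of MAPKAPK2 and its 10 neighbours in each library, by group on the x axis (WT wild type, KO knockout); points are libraries, bars are means and error bars SD of 3. For IL24 the knockout libraries lie between 103 and 119 CPM in DMSO, below the wild-type libraries at 456 to 491 CPM, whereas the DYRK3 groups overlap between genotypes.

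IL24 was measured with 922 to 17874 reads in each library. In wild-type DMSO its libraries stood at 462, 456 and 491 CPM, and in knockout DMSO at 119, 103 and 118 CPM. In wild-type JQ1 they stood at 177, 199 and 183 CPM, and in knockout JQ1 at 43.0, 37.4 and 38.1 CPM. The 4 groups did not overlap, and their order from high to low was wild-type DMSO, wild-type JQ1, knockout DMSO and knockout JQ1. Knockout cells held 24.1% ± 1.90 of the wild-type mean in DMSO and 21.2% ± 1.62 in JQ1 (SD, n = 3 each). The log2 fold change of knockout against wild type was -2.06 (SE 0.07, adjusted p 2.6e-10, edgeR) in DMSO and -2.24 (SE 0.08, adjusted p 9.08e-11, edgeR) in JQ1. Over 22 alternative analyses its extremes were -2.10 and -1.97 in DMSO, and -2.30 and -2.19 in JQ1. In bulk RNA of this kind, fewer cells that express the gene and less RNA in each cell cannot be told apart.

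The other cytokines of the cluster were scarce. IL10 had 23 to 25 reads in the knockout DMSO libraries and 33 to 48 in wild-type DMSO, which is 0.79 to 0.88 CPM against 1.17 to 1.40 CPM. In JQ1 it stood at 0.69 to 1.01 CPM in knockout and 1.19 to 1.70 CPM in wild type. The groups of the genotypes did not overlap in either treatment. The share of all tested genes with groups apart in this way was not counted. Non-overlap, here and for other genes, therefore describes these libraries only. The difference of IL10 did not pass the test in DMSO (log2 fold change -0.66, SE 0.22, adjusted p 0.0878, edgeR) or in JQ1 (-0.68, SE 0.22, adjusted p 0.0757, edgeR). IL19 had 5 to 10 reads in knockout DMSO against 14 to 25 in wild-type DMSO, and 2 to 7 against 12 to 18 in JQ1. Its libraries were also apart by genotype in both treatments, with fitted differences of -1.38 (SE 0.46, adjusted p 0.0872, edgeR) and -1.24 (SE 0.49, adjusted p 0.157, edgeR). The DMSO difference of IL19 passed when only the groups compared were fitted (adjusted p 0.0414, edgeR) and without knockout JQ1 replicate 3 (adjusted p 0.0367, edgeR). Since IL19 reached the read minimum in wild-type libraries alone, its non-overlap and adjusted p are descriptions and count as no evidence. IL20 had no read in 9 of the 12 libraries and 1 or 2 in the others, so no difference was detectable at this depth.

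FCMR encodes the Fc receptor for immunoglobulin M, known from B cells, and was near the lower limit of measurement in these melanoma cells. Its reads numbered 64, 28 and 50 in wild-type DMSO and 14, 10 and 10 in knockout DMSO, or 0.99 to 1.91 CPM against 0.34 to 0.45 CPM. The difference was -1.89 on the log2 scale (SE 0.39, adjusted p 0.00661, edgeR). In JQ1 the knockout libraries had 2 to 7 reads and the wild-type libraries 10 to 28, and the difference of -1.59 did not pass (SE 0.51, adjusted p 0.0737, edgeR); it passed without a filter on low counts (adjusted p 0.0167, edgeR). The B cell marker CD79A was at 0.0515 CPM in wild-type DMSO and 0.0684 CPM in knockout DMSO, and the part of the neighbouring IL24 transcript in the FCMR reads was not tested.

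YOD1 encodes a deubiquitinase that works with the ATPase VCP in protein quality control. It stood at 53.4, 49.96 and 49.97 CPM in wild-type DMSO and at 38.9, 33.4 and 32.8 CPM in knockout DMSO. In JQ1 the values were 40.3, 40.5 and 41.6 CPM in wild type and 27.2, 29.9 and 23.7 CPM in knockout. Every knockout library lay below every wild-type library of the same treatment. Knockout cells held 68.6% ± 6.57 of the wild-type mean in DMSO and 66.1% ± 7.66 in JQ1 (SD, n = 3 each), with log2 fold changes of -0.54 (SE 0.09, adjusted p 8.49e-04, edgeR) and -0.60 (SE 0.09, adjusted p 4.12e-04, edgeR). The knockout level of YOD1 in DMSO and its wild-type level in JQ1 were neighbours in the order of the 4 groups and did not overlap.

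On the proximal side, DYRK3 encodes a kinase that promotes the dissolution of stress granules and is the gene closest to MAPKAPK2. It stood at 27.8, 28.1 and 30.7 CPM in wild-type DMSO and 28.8, 26.7 and 28.9 CPM in knockout DMSO. In JQ1 it stood at 36.1, 38.8 and 36.7 CPM in wild type and 37.2, 34.6 and 34.2 CPM in knockout. The genotypes overlapped in both treatments, with differences of -0.04 (SE 0.07, adjusted p 0.820, edgeR) and -0.08 (SE 0.07, adjusted p 0.603, edgeR).

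EIF2D, which encodes a factor that can deliver initiator tRNA and recycle ribosomes, went the other way. Its libraries stood at 108, 97.2 and 104 CPM in wild-type DMSO and at 123, 118 and 126 CPM in knockout DMSO, a rise of 0.25 on the log2 scale (SE 0.06, adjusted p 0.0174, edgeR). That call was lost with library totals as the only scaling (adjusted p 0.0552, edgeR), when replicate 3 of the knockout in DMSO was omitted (0.0802), and when replicate 2 (0.102) or replicate 3 (0.0531) of the wild type in DMSO was omitted. In JQ1 the knockout stood at 86.4 to 90.4 CPM and wild type at 76.6 to 86.0 CPM, a difference of 0.13 that did not pass (SE 0.06, adjusted p 0.249, edgeR).

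RASSF5 encodes an effector of RAS and RAP1 that binds the MST kinases of the Hippo pathway. It had 135 to 178 reads in wild-type DMSO (4.78 to 4.98 CPM) and 98 to 126 in knockout DMSO (3.36 to 4.04 CPM). The groups were apart, but the difference of -0.43 did not pass over all genes (SE 0.15, adjusted p 0.114, edgeR); it passed when only the groups compared were fitted (adjusted p 0.0411, edgeR). In JQ1, wild-type libraries stood at 1.79, 2.60 and 2.46 CPM and knockout libraries at 0.95, 1.38 and 1.20 CPM, and RASSF5 was lower in the knockout by 0.95 on the log2 scale (log2 fold change -0.95, SE 0.19, adjusted p 0.00447, edgeR). IKBKE, which encodes the non-canonical IkappaB kinase epsilon of antiviral signalling, stood at 10.6 to 12.6 CPM in wild-type DMSO and 8.59 to 11.1 CPM in knockout DMSO, and at 6.57 to 8.05 CPM against 5.52 to 6.97 CPM in JQ1. The genotypes overlapped in both treatments, and the differences of -0.20 (SE 0.13, adjusted p 0.421, edgeR) and -0.29 (SE 0.13, adjusted p 0.238, edgeR) did not pass.

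**Figure D2:**
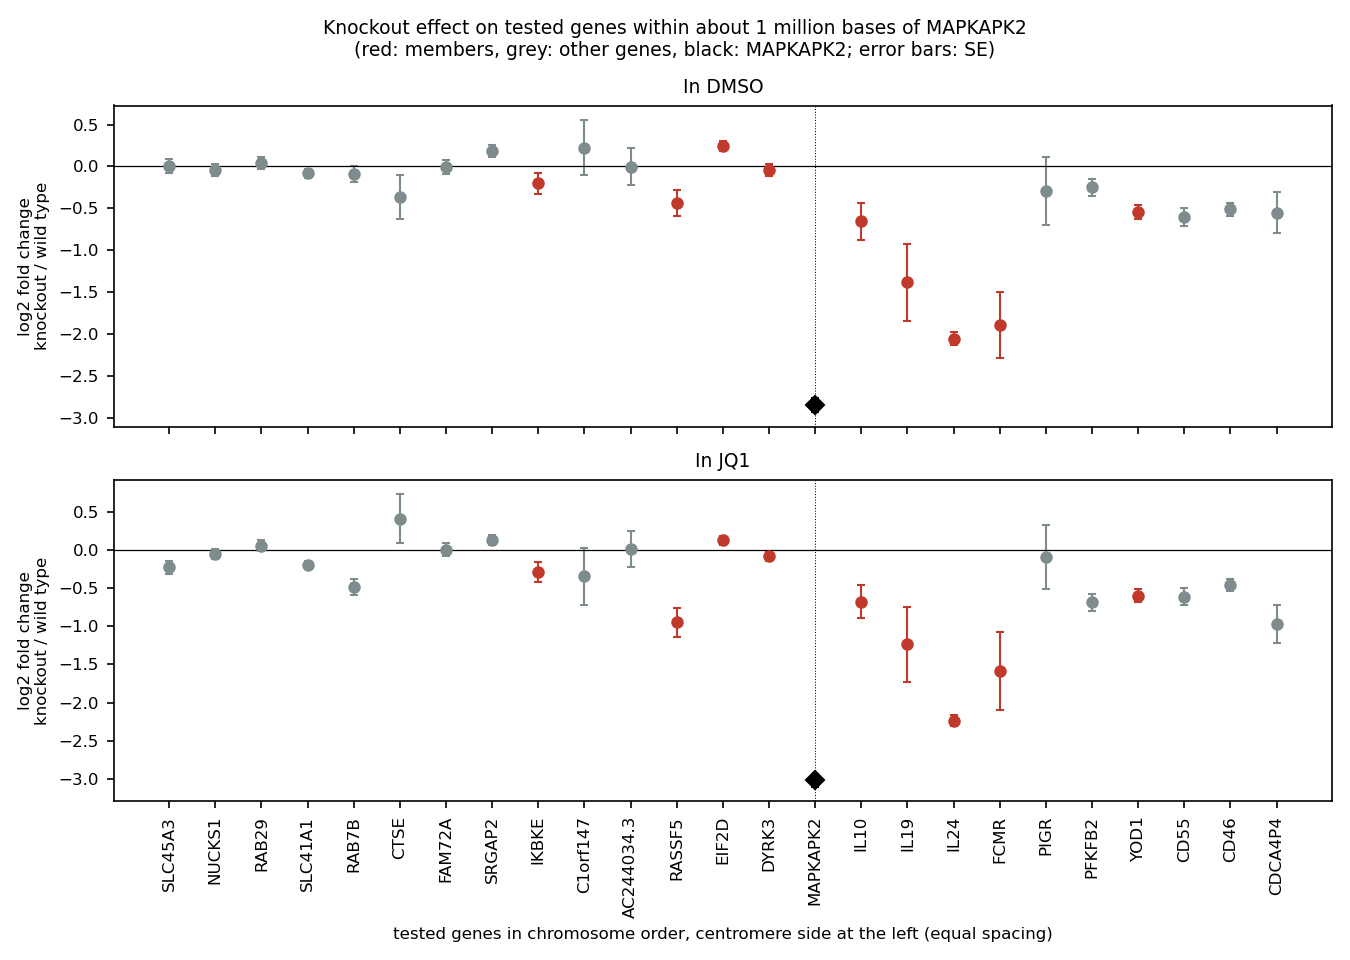
Log2 fold change of knockout against wild type (y axis) for tested genes within about 1 Mb of MAPKAPK2, in chromosome order with equal spacing (x axis), in DMSO (top) and JQ1 (bottom); error bars are SE. The points right of MAPKAPK2 all lie below 0, with IL24 lowest among the neighbours at -2.06 and -2.24, while those left of it lie on both sides of 0.

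The neighbours were next set against other genes of the region. On the list of further 1q32 genes, 9 of 18 in the table were tested. Of the 9, 3 were called lower and none higher in each treatment. The shares over all tested genes were 4.44% lower and 3.47% higher in DMSO, and 5.56% and 3.01% in JQ1. In DMSO 8 of the 9 were below 0, and in JQ1 5. SRGAP2, FAM72A, CTSE, PIGR and CD34 were not called in either treatment. Their log2 fold changes were 0.18, -0.0082, -0.37, -0.30 and -0.84 in DMSO and 0.14, 0.0043, 0.41, -0.088 and 0.51 in JQ1. CD55 and CD46, which encode complement regulators, lay distal to MAPKAPK2 and were lower in the knockout in DMSO (log2 fold changes -0.60 and -0.51, adjusted p 0.00232 and 6.02e-04, edgeR) and in JQ1 (-0.61 and -0.46, adjusted p 0.00291 and 0.00136, edgeR). PLXNA2, a semaphorin receptor gene, was lower in DMSO (-1.05, SE 0.19, adjusted p 0.00264, edgeR) and did not pass in JQ1 (-0.28, adjusted p 0.470, edgeR). PFKFB2, whose product sets the level of a glycolytic activator and whose gene contains YOD1, was lower in JQ1 (-0.69, SE 0.11, adjusted p 9.75e-04, edgeR), with a difference of -0.25 in DMSO that did not pass (adjusted p 0.190, edgeR).

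By position of the gene start, and with the 10 neighbours left out, 13 of 26 tested distal genes within 5 Mb were called lower in DMSO and 14 in JQ1 (53.8%), with medians of -0.51 and -0.48, where 4.44% and 5.56% of all tested genes were called lower. Lower calls were not limited to that window: over the whole distal part of the chromosome they took in 125 of 294 genes in DMSO (42.5%, median -0.39) and 136 of 294 in JQ1 (46.3%, median -0.37). On the proximal side 12 of 69 such genes were called lower in DMSO (17.4%) and 11 in JQ1 (15.9%), also above the shares over all tested genes, with medians of -0.03 and -0.01. Over the whole proximal part they were 79 of 1823 in DMSO (4.33%) and 97 of 1823 in JQ1 (5.32%). NFASC, a proximal gene for a cell adhesion protein named after its values were seen, stood at -1.67 in DMSO and at -2.68 in JQ1, where it lay below IL24. Within 1 Mb on the proximal side, again without the 10 neighbours, 0 of 9 were lower in DMSO by edgeR, DESeq2 or limma-voom, and 0 at an unadjusted p under 0.05, while in JQ1 2 of 9 were lower by each of these tools. No gene of the distal 26 was called higher in either treatment by edgeR. Over the whole distal part 0 of 294 genes were called higher in DMSO and 1 of 294 in JQ1, where 3.47% and 3.01% of all tested genes were. The log2 fold changes of YOD1 in DMSO and JQ1 were close to these distal medians, and those of IL24 lay well below them.

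**Figure D3:**
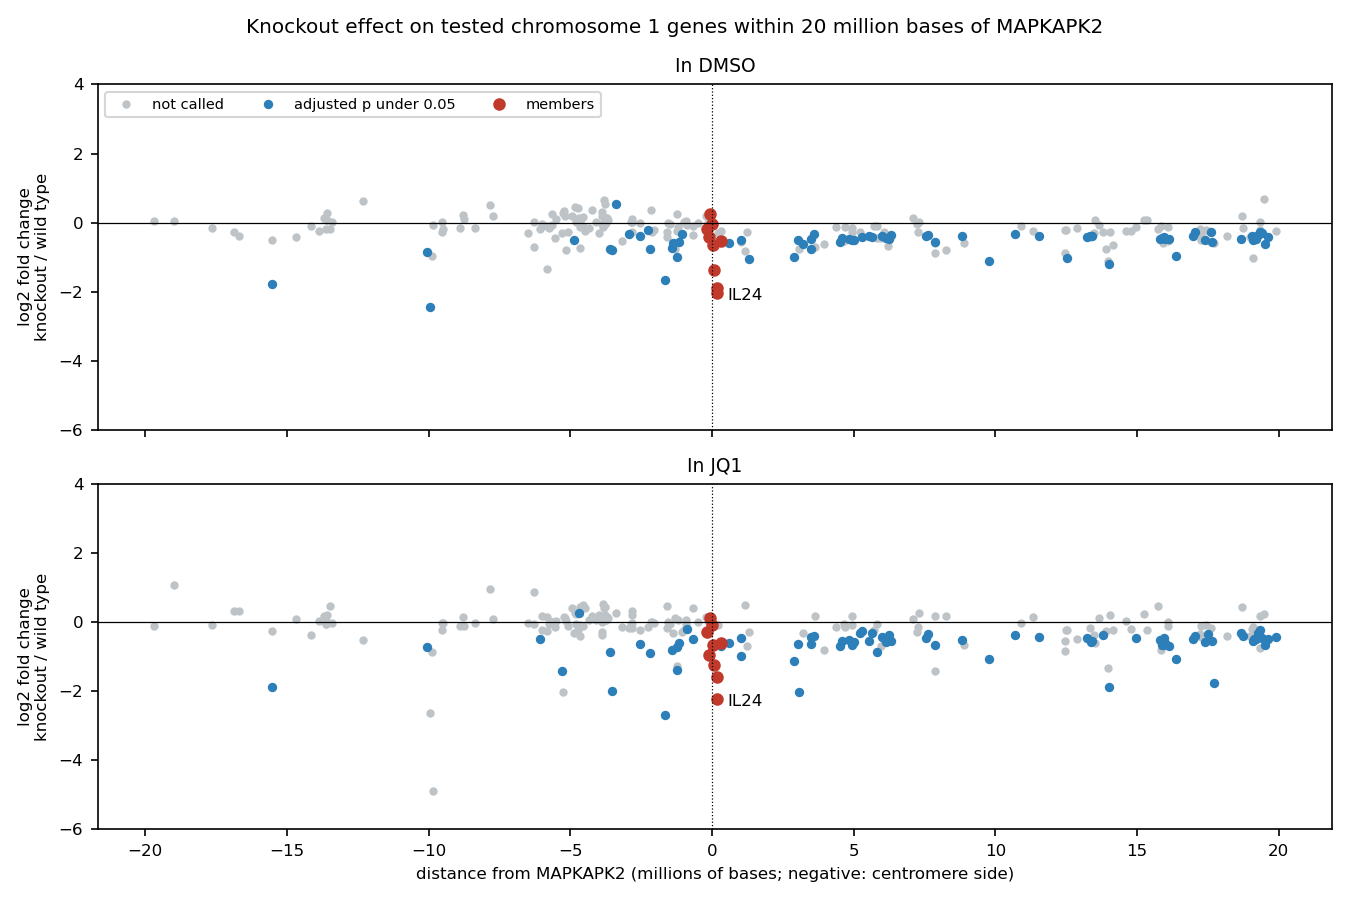
Log2 fold change of knockout against wild type (y axis) against distance from MAPKAPK2 in Mb (x axis, negative towards the centromere) for tested genes, in DMSO (top) and JQ1 (bottom). Only part of chromosome 1 is shown, and the farthest distal gene, ITPKB, lies at 19.9 Mb. Red points are the tested neighbours, blue points are other genes with an adjusted p under 0.05, and grey points did not pass. The blue points right of 0 all lie below the zero line, and IL24, at -2.06 and -2.24, lies below each of them.

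IL24 was also set against the distal genes around it as its log2 ratio to the median of 19 distal genes within 5 Mb, those with a mean of at least 1 CPM, a measure chosen after the values were seen. The ratio was 4.78, 4.81 and 4.70 in wild-type DMSO and 3.21, 3.08 and 3.26 in knockout DMSO. It was 3.64, 3.82 and 3.75 in wild-type JQ1 and 2.13, 1.96 and 2.04 in knockout JQ1. The genotypes did not overlap in either treatment, and the mean difference was -1.64 on the log2 scale. Since IL24 was singled out by these values, they are a description and carry no test.

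The drug also moved most of these genes. In wild-type cells JQ1 lowered IKBKE, RASSF5, EIF2D, IL24, FCMR and YOD1 and raised DYRK3, which is 6 lower and 1 higher of 9 tested, where 16.2% of all tested genes were called lower, 16.9% higher and 33.1% in either direction. In knockout cells 5 of 9 were lower and DYRK3 was higher, against 17.8% lower, 16.7% higher and 34.4% in either direction over all genes. The wild-type DMSO libraries enter both the drug contrast in wild type and the knockout contrast in DMSO, so these are not independent of each other. The medians of the 9 were -0.35 in wild type and -0.47 in knockout, against -0.034 and -0.0035 over all tested genes.

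IL24 fell to 39.6% ± 2.44 of its DMSO level in wild type and to 34.9% ± 2.67 in knockout (SD, n = 3 each), with log2 fold changes of -1.34 (SE 0.07, adjusted p 5.48e-09, edgeR) and -1.52 (SE 0.07, adjusted p 1.93e-09, edgeR). RASSF5 fell to 46.7% ± 8.83 and 32.6% ± 5.94 of DMSO, or by -1.10 (SE 0.16, adjusted p 9.13e-05, edgeR) and -1.62 (SE 0.18, adjusted p 6.66e-06, edgeR) as log2 fold changes. IKBKE fell to 65.4% ± 7.26 and 61.5% ± 7.39, EIF2D to 78.3% ± 4.66 and 72.0% ± 1.67, and YOD1 to 79.9% ± 1.39 and 77.0% ± 8.92 (wild type and knockout in turn, SD, n = 3 each). Their adjusted p in edgeR ran from 2.36e-05 for EIF2D in knockout to 0.00827 for YOD1 in wild type. DYRK3 rose to 129% ± 4.85 of DMSO in wild type (log2 fold change 0.37, SE 0.07, adjusted p 7.30e-04, edgeR) and 126% ± 5.69 in knockout (0.33, SE 0.07, adjusted p 0.00158, edgeR). MAPKAPK2 rose as well in wild type, by 0.39 (SE 0.08, adjusted p 0.00109, edgeR).

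FCMR was lower with JQ1 in wild type (log2 fold change -1.45, SE 0.37, adjusted p 0.00761, edgeR), a call lost without wild-type DMSO replicate 1 (0.0525), and stood at -1.14 in knockout without passing (SE 0.54, adjusted p 0.121, edgeR). IL10 and IL19 did not pass in either genotype. Their log2 fold changes with JQ1 were 0.08 (SE 0.20) and -0.33 (SE 0.41) in wild type and 0.07 (SE 0.23) and -0.18 (SE 0.55) in knockout. Of the tested cytokines, IL24 was the one called with the drug.

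**Figure D4:**
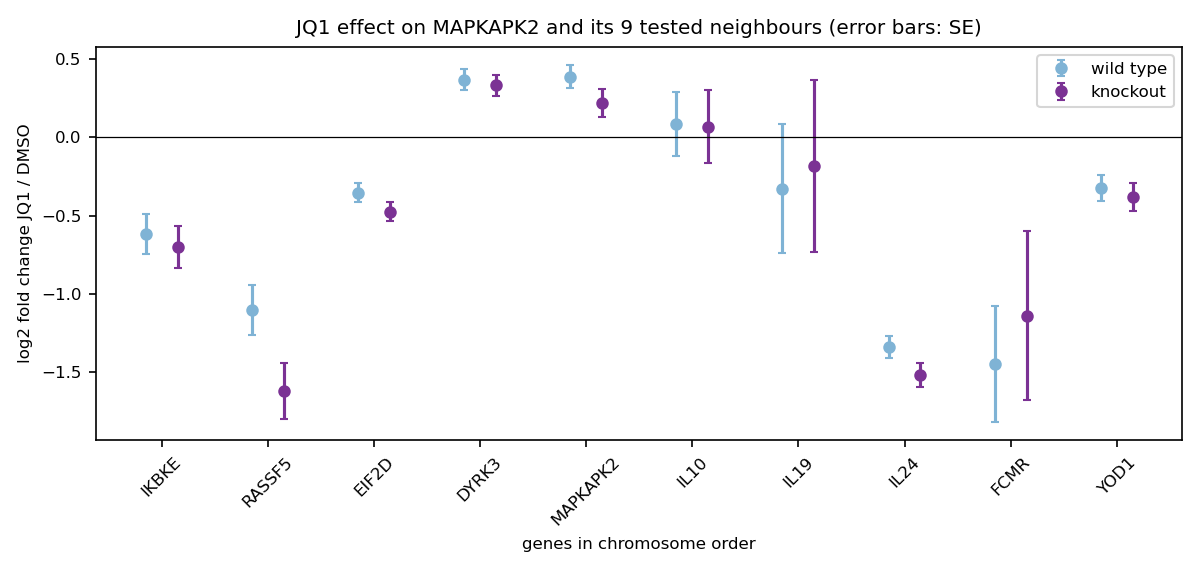
Log2 fold change of JQ1 against DMSO (y axis) for MAPKAPK2 and its 9 tested neighbours in chromosome order (x axis), in wild type (blue) and knockout (purple); error bars are SE. IL24 lies at -1.34 and -1.52 and DYRK3 at 0.37 and 0.33, with the genotypes close together in both.

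The response to JQ1 was then compared between genotypes. None of the 9 tested neighbours passed the interaction test in edgeR (0.134% of all tested genes did, 0.101% downward and 0.0323% upward), and none passed with DESeq2 or limma-voom; 1 of them, RASSF5, had an unadjusted p under 0.05. The difference of its JQ1 responses was -0.52 (SE 0.24, adjusted p 0.597, edgeR). For IL24 the difference was -0.18 (SE 0.10, adjusted p 0.665, edgeR) and for YOD1 -0.06 (SE 0.12, adjusted p 0.942, edgeR). For DYRK3 it was -0.04 (SE 0.10) and for EIF2D -0.12 (SE 0.08). The scarce genes allowed only wide limits, with 0.31 (SE 0.71) for FCMR and 0.14 (SE 0.70) for IL19.

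Partners of these genes in their pathways were read from lists. Of the 10 receptors and transducers of the IL-10 family, 8 were tested; IL10RA and IL20RA were at or near 0 in all libraries, with at most 0.0354 and 0.0275 CPM. IL22RA1, which pairs with IL20RB to bind IL-24, stood at 3.19 ± 0.314 CPM in wild-type DMSO and 2.81 ± 0.103 CPM in knockout DMSO, and IL20RB at 0.147 ± 0.254 and 0.172 ± 0.0955 CPM (SD, n = 3 each). In the knockout in DMSO 2 of the 8 were higher and none lower, where 3.47% of all tested genes were higher and 4.44% lower. These were STAT3, the transcription factor that IL-10 family receptors activate, from 99.3 ± 3.51 to 131 ± 6.76 CPM (log2 fold change 0.40, adjusted p 0.00138, edgeR), and its feedback inhibitor SOCS3, from 23.2 ± 1.27 to 30.7 ± 1.71 CPM (0.40, adjusted p 0.0198, edgeR). With JQ1 in wild type, where 16.9% of all tested genes were higher and 16.2% lower, 4 of the 8 were higher, among them JAK1, a kinase bound to these receptors (0.53, adjusted p 1.56e-06, edgeR), and 1 was lower, IL22RA1 at -1.69 (named after its value was seen).

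Among the 11 partners and substrates of IKK epsilon, none was called in the knockout in DMSO by edgeR, DESeq2 or limma-voom (1 at an unadjusted p under 0.05). By edgeR 7.92% of all tested genes were called there in either direction, so 0 of 11 lies near that share. TANK, an adaptor of the kinase, and AZI2 had the smallest adjusted p there, at -0.32 (adjusted p 0.0654, edgeR) and 0.16 (0.285). With JQ1 in wild type 2 of the 11 were higher and 3 lower, where 33.1% of all tested genes were called in either direction. These included TMEM173, the gene of the DNA-sensing adaptor STING, at -2.03 (SE 0.15, adjusted p 1.61e-07, edgeR), and IRF7, an interferon regulatory factor, at 1.47 (SE 0.21, adjusted p 9.50e-05, edgeR). The 9 RASSF5 partners and Hippo core genes had no call in the knockout in DMSO by edgeR, DESeq2 or limma-voom (1 at an unadjusted p under 0.05), again near the 7.92% of all tested genes. With JQ1 in wild type 1 of the 9 was higher and 2 were lower, a share near the 33.1% of all tested genes. The lower ones were SAV1, a Hippo scaffold (-0.69, adjusted p 1.72e-06, edgeR), and LATS1, a Hippo kinase (-0.36, adjusted p 0.00129, edgeR).

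Of 7 partners of YOD1 around VCP, 6 were higher with JQ1 in wild type and none lower, where 16.9% of all tested genes were higher, with VCP at 0.57 (SE 0.05, adjusted p 1.82e-06, edgeR) and its cofactor UFD1 at 0.54 (SE 0.07, adjusted p 1.96e-05, edgeR), while YOD1 itself was lower. In the knockout in DMSO none of the 7 was called by edgeR (2 at an unadjusted p under 0.05, 1 with DESeq2 and 0 with limma-voom), where 7.92% of all tested genes were called in either direction. That 0, like the 0 of 5 in each of the lists that follow, lies near that share. Of 5 DYRK-related genes none was called in the knockout in DMSO by edgeR (2 at an unadjusted p under 0.05, 1 with DESeq2 and 0 with limma-voom), and DYRK1B rose in wild type given JQ1 (0.46, adjusted p 0.0210, edgeR). Of 5 genes that work beside EIF2D in recycling and reinitiation none was called in the knockout in DMSO by edgeR, DESeq2 or limma-voom, with 0 at an unadjusted p under 0.05, and PELO, a ribosome rescue factor, was lower with JQ1 in wild type (-0.25, adjusted p 0.0204, edgeR).

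In the knockout in JQ1, the lists of IL-10 family receptors and of YOD1 partners each had 1 gene called higher and none lower, and those of IKK epsilon and of DYRK genes each had 1 called lower and none higher, where 3.01% of all tested genes were higher and 5.56% lower. The RASSF5 and EIF2D lists had none called there by edgeR, DESeq2 or limma-voom, with 1 and 0 genes at an unadjusted p under 0.05. With JQ1 in knockout cells the counts of higher and lower genes were 3 and 1 for the IL-10 family list, 2 and 3 for IKK epsilon, 2 and 2 for RASSF5, 0 and 1 for EIF2D, 0 and 2 for DYRK and 5 and 0 for YOD1, where 16.7% of all tested genes were higher and 17.8% lower.

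Genes whose pattern over the 12 libraries was most like that of each neighbour called in a knockout contrast were found by Pearson's r of log2 CPM among 15403 genes. These values describe 12 points in 4 groups, which differ by drug and by genotype, and carry no test. For YOD1 they were CENPF (r = 0.990), LPGAT1 (0.988) and HEATR1 (0.980), all on chromosome 1 distal to MAPKAPK2, with log2 fold changes in the knockout in DMSO of -0.57, -0.52 and -0.44. For FCMR they were FBXO28 (0.955) and ANGEL2 (0.949), also distal on chromosome 1, and PRKAG2 on chromosome 7 (0.953). For IL24 none lay on chromosome 1: they were PRKDC on chromosome 8 (0.993), SPOCK1 on chromosome 5 (0.991) and SNX9 on chromosome 6 (0.989). Their log2 fold changes in the knockout in DMSO were -0.65, -1.12 and -0.44, all smaller in size than that of IL24. For RASSF5 they were NCR3LG1 on chromosome 11 (0.979), DNAJC6 on the proximal part of chromosome 1 (0.979) and TRERF1 on chromosome 6 (0.978), and for EIF2D EIF3D on chromosome 22 (0.985), EIF4B on chromosome 12 (0.980) and GBP2 on the proximal part of chromosome 1 (0.977). Between neighbours, IL24 and YOD1 had r = 0.965, IL24 and FCMR 0.901, and IL24 and DYRK3 -0.374.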

How the data were processed

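RNA was measured in 12 libraries made from total RNA depleted of ribosomal RNA with a directional kit, per the labels' protocols. The authors deposited estimated counts per gene symbol, which need not be whole; kallisto, Trim Galore, cutadapt, FastQC, MultiQC, DESeq2 and the build GRCh38.p10 are named, without roles, in the submitters' processing notes. The authors also deposited a normalized signal for 32828 genes, equal to the rounded count divided by a factor for gene and library; it was used in alternatives only. For this work counts were rounded and filtered with filterByExpr (minimum count 10), and 21698 genes holding at least 99.9% of each library's counts were scaled with TMM and fitted with edgeR's quasi-likelihood functions, with a term per group and all 12 libraries in the fit (edgeR 4.0.16, limma 3.58.1, DESeq2 1.42.0, R 4.3.3). Adjusted p-values are Benjamini-Hochberg over all tested genes, with a threshold of 0.05. The design foresaw raw or estimated counts, rounded where needed. Each SE is the absolute log2 fold change over the square root of F, and CPM use TMM-scaled totals. Fitted log2 fold changes use a prior count of 0.125. The fit was tested on simulated data.

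Symbols were matched to GENCODE release 29; 97.4% of tested symbols matched a single locus. The submitters' build is a patch of GRCh38, the assembly on which GENCODE 29 is placed. Named genes were the 10 neighbours and MAPKAPK2, listed 1q32 genes called in a knockout contrast, up to 2 genes per pathway list with the smallest adjusted p in the knockout contrast in DMSO and in the JQ1 contrast in wild type, and the 3 genes most like each neighbour called in a knockout contrast; receptors, CD79A and the markers are named besides, and some genes that the rule names are not reported here. The neighbours and lists were chosen with earlier results of these data known, so their counts are descriptions. Alternatives were other scalings, filters, tools and sample sets, a replicate block, and each library left out in turn.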

Additional observations from a re-analysis of the deposited data

How the results depend on the processing

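The number of neighbours called was within 1.5 times its main value under every alternative run, for each of the 5 contrasts. With libraries left out in turn it ran from 3 to 5 in the knockout contrast in DMSO. Of 1083 values of MAPKAPK2 and its neighbours under the alternatives, 1052 kept direction and side of the threshold, 5 lost the call, 6 gained it and 20 changed sign. The changes of sign, none in a called value, were in genes near 0 or with few reads. In the knockout contrast in DMSO, DYRK3 ran from -0.058 to 0.018 when libraries were omitted in turn (0.012 and 0.018 being the positive values). With JQ1 in wild type, IL10 was -0.044 with library totals only and -0.092 without replicate 1 of that group. With JQ1 in knockout, IL10 was -0.049 with library totals only and otherwise ran from -0.053 to 0.20, and IL19 ran from -0.49 to 0.29 (0.18 and 0.29 being positive) when libraries were omitted. For the interaction, omitting libraries gave -0.14 to 0.16 for IL10 (0.028, 0.043, 0.12 and 0.16 being positive), -0.17 to 0.62 for IL19 (-0.019, -0.035, -0.12 and -0.17 being negative), -0.13 to 0.85 for FCMR and -0.14 to 0.028 for YOD1 (0.023 and 0.028 being positive), and limma-voom gave -0.014 for IL19. The cause was not tested. Library totals as the only scaling moved the median of all genes with JQ1 to -0.16 in wild type and -0.12 in knockout.

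Pairing of the libraries by the replicate numbers of the titles was not detected. Deviations of same-numbered libraries from their group means correlated at -0.115 to 0.0786, and those of differently numbered libraries in different groups at -0.136 to 0.106. Only 2 of 12 libraries correlated best with their own number. With a replicate block the numbers of neighbours called were 4, 3, 7, 6 and 0, as without it. Depth limited IL10, IL19, IL20 and FCMR, which had at most 64 reads in a library.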
